A study of Mus musculus with 2 samples.

Results

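The cells described here were endothelial cells of the mouse mitral valve marked by Wnt9b, Nts and Dkk2, and they numbered 172 of the 4313 cells kept by the quality filter. Cells were kept with 200 to 5000 genes detected and no more than 10% of UMIs from mitochondrial genes (a UMI is a unique molecular identifier and stands for 1 captured transcript). An endothelial gate then asked for at least 3 UMIs of Pecam1, Cdh5 and Egfl7 together, no UMI of Ptprc and fewer than 5 UMIs of C1qa, C1qb and C1qc together. It kept 491 cells, 51 of the WT library and 440 of the mgR library. Cells that passed it were members when they had at least 1 UMI of more genes of set B (Wnt9b, Nts, Ptprr, Pthlh, Dkk2, Inhba, Hapln1 and Palmd) than of set A (Prox1, Vwf, Emcn, Lrg1, Plvap, Efnb2, Gpm6a and Ephx2). There were 20 WT members and 152 mgR members. The opposite cells, with more set A than set B genes and called set A cells here, numbered 27 and 259, and 4 and 29 cells had a tie. The members were thus chosen on measured values, and the levels of the set A and set B genes and the contrast between members and set A cells are given as a description, with no test.

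The study asked what drives myxomatous degeneration of the mitral valve in mice that make too little fibrillin-1. The deposited single-cell data hold 1 library from wild-type control mice (WT) and 1 from Fbn1 mgR/mgR mice (mgR), homozygous for an allele that lowers fibrillin-1 in every cell and does not delete the gene. Both libraries came from mitral valve leaflets of mice aged 12 weeks with no drug treatment, digested with collagenase and elastase and sorted for viable cells. With 1 library per genotype there is no replicate, any pooled animals are not marked in the files, and every interval below is a 95% interval for counting error only. WT and mgR differ in genotype and in library alike, and these cannot be told apart.

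Valve endothelial cells line the leaflets and differ by the flow they meet, and the side under fast laminar flow is known for KLF2 and KLF4 signalling and for Wnt ligands. Wnt9b is a secreted Wnt ligand that valve endothelium uses to signal to the interstitial cells below it, and Dkk2 is a secreted regulator of the LRP5 and LRP6 Wnt co-receptors. Inhba encodes the subunit of activin A, a ligand of the TGF-beta family, Pthlh the parathyroid hormone-related peptide, and Nts the precursor of the peptide neurotensin. Ptprr is a tyrosine phosphatase that acts on ERK, Hapln1 links hyaluronan to proteoglycans, and Palmd encodes palmdelphin, a protein tied to the actin cytoskeleton and the nuclear envelope.

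The members summed to 114017 UMIs in WT and 1126540 in mgR, so the WT values rest on far fewer molecules. A WT member had a median of 5304 UMIs (range 590 to 12508) and an mgR member a median of 6925 (1836 to 26037). The 2 libraries shared 2 cell barcodes, neither of them a member. The study states that only male mice were compared, yet Xist UMIs without Y-linked UMIs were seen in 6 of 20 WT and 97 of 152 mgR members, against 28.1% and 60.8% of all cells. The reverse, Y-linked UMIs alone, was seen in 8 WT and 24 mgR members, so both libraries held cells of both kinds in unequal shares. Values within each kind are given beside the genotype results.

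The start regions of the genes whose levels set these cells apart from other valve cells are shown here as a description. They run from 250 bases before to 50 bases after the annotated start, on the coding strand, from RefSeq on GRCm38.p6, the build the files use. Set B had such a region for 7 of 8 genes. Capitals mark matches on either strand to TGANTCA (bound by AP-1), TGACGTCA (the cyclic AMP response element), CACCC (bound by KLF factors) or CTTTGA (the core of TCF and LEF sites). The regions are Wnt9b at chr11:103749772-103750071 and Pthlh at chr6:147263964-147264263, both on the minus strand, Nts at chr10:102490369-102490668, also on the minus strand, and Dkk2 at chr3:132085042-132085341 and Inhba at chr13:16011601-16011900, both on the plus strand.
Wnt9b: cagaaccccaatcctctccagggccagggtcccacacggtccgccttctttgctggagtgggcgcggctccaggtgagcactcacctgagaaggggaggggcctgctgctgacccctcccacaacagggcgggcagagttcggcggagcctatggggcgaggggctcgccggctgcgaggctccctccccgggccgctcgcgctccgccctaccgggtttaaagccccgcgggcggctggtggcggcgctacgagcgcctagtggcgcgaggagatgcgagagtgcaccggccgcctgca
Pthlh: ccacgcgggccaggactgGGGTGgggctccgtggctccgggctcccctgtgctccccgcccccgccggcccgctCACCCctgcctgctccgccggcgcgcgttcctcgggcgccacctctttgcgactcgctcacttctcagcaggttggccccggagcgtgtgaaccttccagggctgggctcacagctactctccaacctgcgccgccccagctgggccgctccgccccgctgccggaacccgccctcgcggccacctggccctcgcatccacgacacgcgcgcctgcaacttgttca
Nts: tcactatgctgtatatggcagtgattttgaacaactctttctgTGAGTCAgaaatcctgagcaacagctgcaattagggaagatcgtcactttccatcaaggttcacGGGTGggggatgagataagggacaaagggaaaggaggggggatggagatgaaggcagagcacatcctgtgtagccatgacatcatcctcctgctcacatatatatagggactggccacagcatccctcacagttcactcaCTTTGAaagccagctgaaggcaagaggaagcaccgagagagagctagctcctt
Dkk2: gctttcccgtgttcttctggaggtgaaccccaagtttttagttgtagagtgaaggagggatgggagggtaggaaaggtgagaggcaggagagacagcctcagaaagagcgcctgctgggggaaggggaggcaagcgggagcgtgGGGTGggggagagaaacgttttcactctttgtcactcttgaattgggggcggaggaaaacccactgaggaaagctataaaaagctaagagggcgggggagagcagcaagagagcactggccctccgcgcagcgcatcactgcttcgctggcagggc
Inhba: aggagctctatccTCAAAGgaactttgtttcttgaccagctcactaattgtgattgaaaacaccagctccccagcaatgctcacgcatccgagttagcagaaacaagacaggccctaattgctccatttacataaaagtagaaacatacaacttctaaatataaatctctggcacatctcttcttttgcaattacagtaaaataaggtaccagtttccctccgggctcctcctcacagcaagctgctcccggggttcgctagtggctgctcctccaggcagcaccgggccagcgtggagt

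The Nts region held 1 TGANTCA match starting 207 bases before the start and 1 CTTTGA match starting 3 bases before it, and the Inhba region held 1 CTTTGA match on the opposite strand 237 bases before it. CACCC was matched in Nts, Dkk2 and Hapln1 once each, in Pthlh at 2 places, and in 2 of the 4 annotated start regions of Ptprr. Those 2 Ptprr regions overlap, and the match in them is the same stretch of bases. Wnt9b held none of the 4 motifs and is rich in G and C (71.7% of bases, against 49% in Nts and 47.7% in Inhba). Over all 32851 mouse start regions of this length, 7.81% held TGANTCA, 1.79% TGACGTCA, 57.5% CACCC and 16.0% CTTTGA. A match here is a string of letters and was not shown to be a site. The Inhba gene also overlaps the opposite-strand annotations B230303A05Rik and Gm48444, and Palmd the same-strand annotation Gm42892, with which reads could be shared.

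Most members had several of the 8 set B genes, and few had all of them (2 WT and 27 mgR members). A WT member had a median of 5 set B genes and 1 set A gene, and an mgR member 6 and 2. Of the 6 leading markers (set B without Hapln1 and Palmd), 14 of 20 WT members (70%) and 126 of 152 mgR members (82.9%) had at least 3. All 6 were found in 2 WT and 32 mgR members, and none of the 6 in 1 WT and 3 mgR members, which qualified on Hapln1 or Palmd alone. Set A genes were not all absent from members. Lrg1, Gpm6a and Ephx2 stood at 1.78, 5.33 and 3.55 CPM in mgR members against 405, 144 and 122 CPM in set A cells, whereas Emcn, an endothelial sialomucin, was still at 316 against 920 CPM and in 110 of 152 members, and Prox1, a transcription factor of valve and lymphatic endothelium, at 70.1 against 289 CPM. Members that were ahead by a single gene numbered 3 in WT and 18 in mgR, with medians of 11 and 12.5 set B UMIs, while the tied cells just outside had medians of 8 and 6. Cells a single gene to the other side (7 and 20 set A cells) had medians of 2 and 5 set B UMIs. In WT, 1 tied cell held 23 UMIs of Wnt9b and 16 of Pthlh, against 33 and 31 summed over all 20 WT members, so the WT levels of these genes depend on the rule at its edge.

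**Figure D1:**
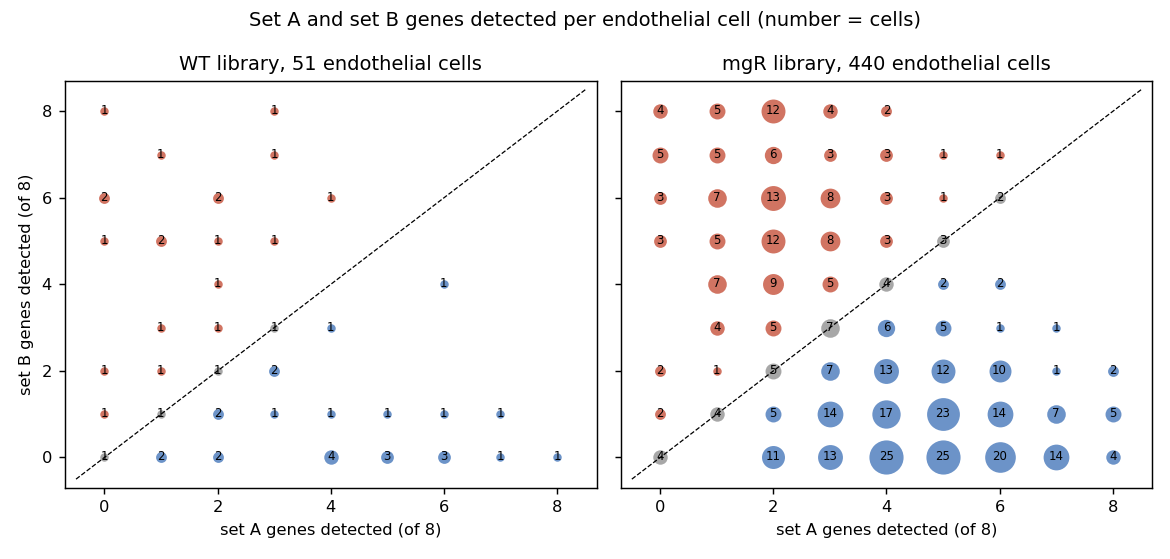
Each circle places cells of the endothelial gate by the number of set A genes (horizontal axis) and set B genes (vertical axis) with at least 1 UMI, with its number of cells printed and its area growing with it, for WT (left, 51 cells) and mgR (right, 440 cells). Members lie above the dashed line of equal numbers (red), set A cells below it (blue), and the 4 and 29 tied cells on it (grey).

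Levels of the rule's genes are UMI counts scaled to a total of 1000000 (CPM) over members. Wnt9b stood at 289 CPM in WT members (95% interval 199 to 406, UMIs in 10 of 20 cells) and 427 CPM in mgR members (390 to 467, in 93 of 152). In set A cells it stood at 44.5 and 30.4 CPM. Dkk2 stood at 272 CPM in WT members (9 cells) and 373 CPM in mgR members (102 cells), against 0 and 11.6 CPM in set A cells. These contrasts between members and set A cells were fixed by the rule, and so were those of the genes that follow.

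Nts stood at 824 CPM in WT members (11 cells) and 1835 CPM in mgR members (88 cells), and single mgR members held up to 175 Nts UMIs. Inhba stood at 605 CPM in WT members (15 cells) and 2327 CPM in mgR members (123 cells). Pthlh stood at 272 CPM in WT members (11 cells) and 676 CPM in mgR members (107 cells). Nts was the most unequal of the 3 signals, with a median of 2 UMIs per mgR member beside that highest value, as the plot of marker UMIs per member shows. Ptprr, the ERK phosphatase, stood at 403 and 461 CPM in members and at 0 and 2.17 CPM in set A cells. Hapln1 (1254 CPM in WT, 704 CPM in mgR) and Palmd (631 and 1049 CPM) were detected in 16 and 18 of 20 WT members and in 123 and 139 of 152 mgR members.

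**Figure D2:**
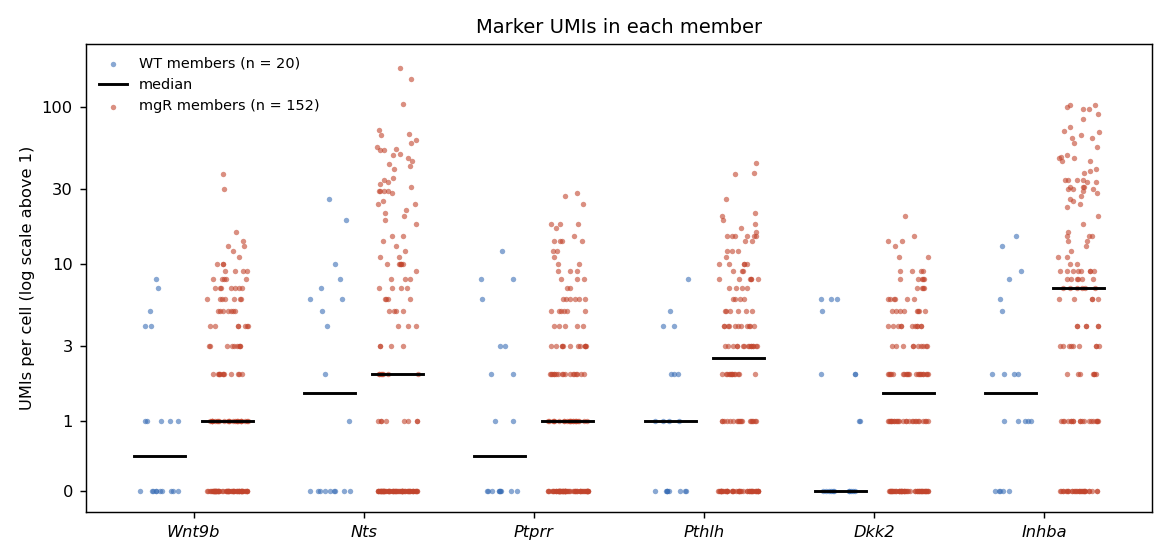
UMIs of the 6 leading markers (vertical axis, log scale above 1 with 0 shown at the bottom) in each of the 20 WT members (blue) and 152 mgR members (red), with the median as a black bar. Every marker had members at 0 in both libraries, and Nts and Inhba had mgR members above 100 UMIs.

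Depth alone changes such shares, so each cell was thinned to 2000 UMIs, which left out 2 WT members and 1 mgR member. After thinning, Dkk2 was found in 64 of 151 mgR members (42.4%), 0.810% of set A cells, 0.268% of collagen-gated cells and 0.15% of C1q-gated cells. The last 2 groups are cells with no endothelial gate UMI that carried collagen or complement C1q transcripts, and they stand for the level of free RNA. Nts was found in 48.3% of thinned mgR members and in 0.402% of collagen-gated cells, Ptprr in 35.8% and 0.669%, Pthlh in 54.3% and 0 of 747 cells (a count of 0 that leaves room for 0.402%), and Wnt9b in 39.1% and 0 of 747. Inhba was the exception among the 6 markers, with 70.2% of thinned mgR members against 7.1% of collagen-gated cells. In the 18 thinned WT members the 8 genes were found in 33.3% to 72.2% of cells. The rule chose members by these UMIs, so their high shares there are no finding, and what the comparison gives is the low level of the genes in cells of other types. The unthinned shares in mgR members ran from 57.9% to 91.4%.

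The label of endothelial cells was borne out by markers the gate did not use. The 18 pan-endothelial genes of a list without the gate genes summed to 5990 CPM in WT members and 5704 CPM in mgR members, close to the 6315 and 5796 CPM of set A cells, against 814 and 851 CPM in collagen-gated cells. Of 10 lymphatic genes, Ccl21a, Pdpn and Reln were at 0 in members of both libraries, while 6 were detected in WT members and 7 in mgR members. The list summed to 412 CPM in WT and 400 CPM in mgR members (588 and 1270 CPM in set A cells). Of 12 capillary genes, Car4, Gpihbp1, Timp4 and Aplnr were at 0 in members of both libraries, but the list summed to 2184 CPM in WT and 2381 CPM in mgR members, against 1853 and 2248 CPM in set A cells. The water channel gene Aqp1 alone gave 1447 and 1529 CPM of these sums in members. Among T cell, B cell, dendritic cell and neutrophil markers no list summed to more than 4 UMIs in members of either library. Macrophage markers summed to 43.9 and 115 CPM. Of the lists for other lineages than endothelium, fibroblast markers had the largest sum. Their 11 genes summed to 1859 CPM in WT members (212 UMIs, range 0 to 15254 CPM per cell, with Col1a1, Dpt and Ogn at 0) and 4210 CPM in mgR members (0 to 38988 CPM per cell, none at 0), against 8311 and 7905 CPM in set A cells. Their part in the results below was not tested, and the values without the members richest in these transcripts are given where they matter.

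Within the members, pairs of markers differed in how they correlated. Over 152 mgR members, the log-normalised level of Wnt9b correlated with that of Pthlh (Pearson r 0.46) and Ptprr (0.38), but not with Nts (0.06), and with Dkk2 the sign was negative (r −0.19). Nts went with Inhba (0.40) and Dkk2 (0.39). Over the 20 WT members the values were 0.43 for Wnt9b with Pthlh, 0.47 with Ptprr, −0.44 with Nts and −0.09 with Dkk2, and 0.35 for Nts with both Inhba and Dkk2. The rule chose members by how many of these genes they held, which can itself push pairs towards negative values. These cells also share their library and the counts are sparse, so the coefficients are descriptions of pairs and of nothing more. Since Wnt9b and Dkk2 are both secreted regulators of Wnt signalling, the mgR members were then laid out by detection of these 2 genes, a division chosen after the values had been seen. Wnt9b without Dkk2 was found in 35 members, Dkk2 without Wnt9b in 44, both in 58 and neither in 15.

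Nppc, the C-type natriuretic peptide, was found mainly in members with Wnt9b alone, in 12 of 35 cells. Nppc summed to 241 UMIs (894 CPM, 95% interval 785 to 1014) in the 35 cells with Wnt9b alone, to 58 in the 58 cells with both, to 1 UMI (3.80 CPM) in the 44 with Dkk2 alone and to 0 in the 15 with neither. Adamts8, a secreted metalloproteinase, summed to 145 UMIs (538 CPM) and 7 UMIs (26.6 CPM). Ptprr stood at 705 and 171 CPM, and Pthlh at 1024 and 369 CPM. Nppb, Nrg1 and Dhh, which encode a natriuretic peptide, a neuregulin and the desert hedgehog ligand, gave 23, 31 and 28 UMIs with Wnt9b alone and 0, 1 and 1 with Dkk2 alone. Nppb rested largely on a single cell, as given below. C-type natriuretic peptide, hedgehog and neuregulin transcripts were thus found with Wnt9b alone far more than with Dkk2 alone. Most Nrg1 UMIs of mgR members, however, lay in cells with both genes or neither.

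Other genes were higher in the members with Dkk2 alone, some of them in few cells. Nts stood at 2299 CPM with Dkk2 alone (2119 to 2489) and 408 CPM with Wnt9b alone (335 to 492). Gap43, a growth cone protein, gave 34 UMIs in 9 of the 44 cells against 0, and Xirp2, an actin-binding repeat protein, 35 UMIs in 5 cells against 2. Vcam1, the leukocyte adhesion receptor, stood at 1858 and 419 CPM, Icam1 at 129 and 14.8 CPM, and Fst, the secreted antagonist of activin, at 460 and 111 CPM. Inhba ran the other way from its antagonist, at 1364 CPM with Dkk2 alone and 2619 CPM with Wnt9b alone, and was highest (3041 CPM) in cells with both. Over the 4245 genes compared between these 2 groups, 185 were higher with Wnt9b alone and 167 with Dkk2 alone. The 2 groups also differed in depth (median 7653 and 5514 UMIs per cell) and in collagen, Dcn and Lum transcripts (median 18 and 7 UMIs per cell, with Col3a1 at 68 and 1 UMIs), and the part of these in the difference was not tested. In WT the same layout gave 5, 4, 5 and 6 cells, with Nppc at 14 UMIs with Wnt9b alone and 0 with Dkk2 alone, Ptprr at 23 and 1 and Nts at 0 and 25. Inhba gave 5 and 21 UMIs there, the opposite order to mgR.

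**Figure D3:**
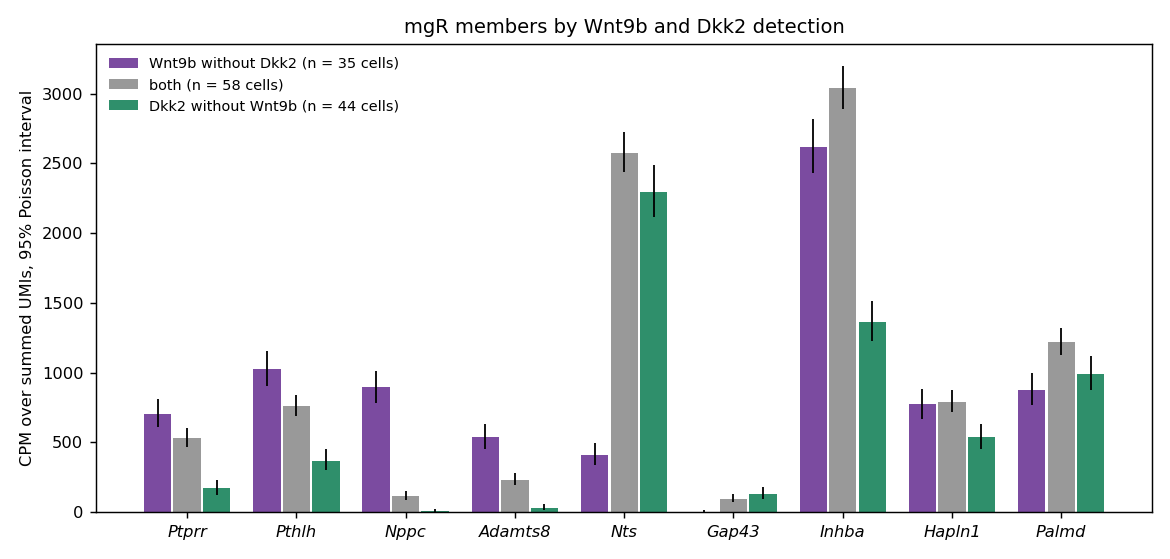
Summed level (CPM, with 95% Poisson intervals) of 9 genes in mgR members with Wnt9b and no Dkk2 UMI (purple, 35 cells), with both (grey, 58 cells) and with Dkk2 and no Wnt9b UMI (green, 44 cells). Nppc and Adamts8 were highest with Wnt9b alone, Nts and Gap43 were lowest there, and Hapln1 and Palmd differed least.

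Members were next set beside the set A cells of the same library, which answers how the transcriptome around the rule's genes differed. A gene counted as higher when its CPM ratio was at least 2 and the counting interval excluded 1, and as lower at a ratio of 0.5 or less, among genes with at least 20 UMIs in both sums together. In mgR, 740 of 8688 genes were higher in members (8.52%) and 465 were lower (5.35%), the set and gate genes not counted. The median gene ratio was 1.10 (a shift of 0.13 on the log2 scale), and after scaling to it 592 were higher and 591 lower, so the excess of higher genes (61.4% of the calls) was gone. In WT, 160 of the higher genes could be tested and 146 had the same direction, as had 86 of 89 of the lower genes, while 54.6% of all 2087 genes tested in WT were higher in members. The direction in WT is no independent support, since the same rule chose those cells.

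The genes farthest above set A cells included peptides, growth factors and a microfibril protein. Areg, which encodes the EGF receptor ligand amphiregulin, gave 208 UMIs in 31 mgR members against 1 UMI in all 259 set A cells (185 and 0.725 CPM, ratio 255, interval 45.2 to 10108). Nppc gave 300 UMIs in 22 members against 3 (ratio 122, 41.5 to 597). Ltbp2, a protein of the microfibrils, gave 184 UMIs in 64 members against 1 (ratio 225, 39.9 to 8947). In WT the 3 genes were at 0 UMIs in set A cells and gave 4, 20 and 12 UMIs in members. Nppc came from few cells in both libraries (4 of 20 WT members), while Ltbp2 was spread over many more.

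Genes with broad detection were high as well. Prnp, the cellular prion protein, stood at 1404 CPM in mgR members against 62.3 CPM in set A cells (22.5-fold, 18.1 to 28.3) and at 1149 against 134 CPM in WT (8.6-fold, 5.03 to 15.8), with UMIs in 138 of 152 and 17 of 20 members. Ly6a, the surface protein Sca-1, stood at 1107 against 42.0 CPM in mgR (26.3-fold) and 658 against 134 CPM in WT (4.92-fold). Serpinb1a, an inhibitor of neutrophil proteases, was 30.7-fold higher in mgR and 8.12-fold in WT, and Ly6c1 24.6-fold and 3.83-fold. Adamts8 was 47.1-fold higher in mgR (22.5 to 118) and 12.8-fold in WT, where 1 UMI in set A cells leaves an interval from 1.92 to 544. Gap43 and Xirp2 gave 85 UMIs each in mgR members and 1 UMI each in set A cells. The potassium channel gene Kcnc2 gave 93 UMIs in members and 2 in set A cells, and Chil5, Sema3c, Ano1 and Wnt16 gave 77, 67, 55 and 50 UMIs against 0, which makes them at least 31.4-fold, 27.3-fold, 22.4-fold and 20.4-fold higher with set A cells at a floor of 3 UMIs. In WT several of these 15 genes rested on few UMIs, such as Areg and Ano1 at 4 against 0 and Sema3c at 6 against 3, a ratio of 1.97 with an interval of 0.421 to 12.2.

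The 10 genes named below set A cells were of several kinds. Ccl21a, the lymphatic chemokine, was at 0 in members and gave 756 UMIs in only 7 mgR set A cells, and Mmrn1 gave 1 and 98 UMIs, the latter also in 7 cells. Cd36, the fatty acid transporter of capillaries, gave 1 UMI against 117 in mgR and 0 against 32 in WT. Ahsg, which encodes the mineral-binding protein fetuin-A, was at 19.5 CPM in mgR members against 542 CPM in 148 set A cells, and at 0 against 508 CPM in WT. Hamp, the iron hormone hepcidin, gave 3 UMIs against 467, and Akap12, a kinase scaffold, 6 against 297. Emb, Bex4, Igfbp3 and Aqp8 gave 1, 0, 0 and 0 UMIs in mgR members against 124, 65, 51 and 44. Ahsg, Akap12 and Cd36 were also lower in WT by the same rule, whereas the other 7 were too sparse in WT to be called.

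Around the 2 Wnt genes of the rule, other Wnt genes were few. The list counts here and in the next paragraphs stand beside a background of 8.52% of all genes higher and 5.35% lower, in the contrast that the rule itself used. Of the other Wnt and R-spondin ligand genes, 5 had enough UMIs: Wnt7a (18 against 6 UMIs) and Wnt16 (50 against 0) were higher in mgR members, and Rspo3, which strengthens Wnt signals, was lower (5 against 71). Of 13 receptor genes, Tspan12, a partner of Fzd4, was higher (218 against 52.9 CPM, 4.13-fold), and so was Fzd7 at 30 against 17 UMIs, a call lost with scaling to the median gene. Fzd4, Reck and Adgra2 were lower, with 28, 8 and 16 UMIs against 101, 78 and 62. Of 6 secreted or membrane antagonists 4 were higher and none lower, but 2 of the 4 came from few cells: Wif1 gave 84 UMIs in 6 members and Frzb 14 UMIs in 4, and Frzb was lost with scaling, while Dkk3 gave 129 UMIs in 38 members (3.43-fold) and Trabd2b 20 UMIs in 14. Of 16 genes of Wnt targets and transducers, Tcf7l1 (6 against 45 UMIs) and Sp5 (5 against 25) were lower and none was higher. The median log2 ratio was 0.78 for the ligands, −0.19 for the receptors, 0.70 for the antagonists and −0.21 for targets and transducers, beside 0.09 over all genes tested.

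Among TGF-beta family ligands and associated proteins, genes went both ways. Inhbb, the subunit of activin B, joined Inhba with 59 UMIs in members and 21 in set A cells (3.44-fold), and Ltbp2 was high as given above. Ltbp1 (123 against 275 CPM) and Lrrc32 (32.8 against 74.7 CPM), which hold latent TGF-beta, were lower, out of 12 genes tested. Of 7 receptor genes, Tgfbr3 and Eng were lower (Eng at 808 against 1676 CPM), and Itgav, the integrin subunit that frees latent TGF-beta, was higher (2.02-fold, lost with scaling). Among the response genes Smad3 was higher (17 against 6 UMIs) and Ccn2 and Postn lower, with Postn at 163 against 1024 CPM. Gdf10 (61 against 4 UMIs) and Bmp2 (75 against 24) led the BMP genes, with Bmp1 also higher, and Bmp6, Smad6, Id2 and Hamp were lower, out of 18. Of 13 Notch genes, Hey2 (3.75-fold) and Jag1 (2.04-fold, lost with scaling) were higher, Dlk1 came wholly from 1 cell with 48 UMIs, and Nrarp and Lfng were lower. The medians of these lists lay between −0.17 and 0.42.

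Among 9 ligands and receptors of the FGF and ERBB families, the ligands Areg, Ereg, Nrg1 and Fgf2 were higher, and Fgfr2 was lower at 0 against 20 UMIs. Ereg, a relative of amphiregulin, gave 54 UMIs in 35 members against 2, Nrg1 115 UMIs in 39 members against 22 (6.4-fold), and Fgf2 59 UMIs in 38 members against 8 (9.03-fold). Of 9 phosphatase and feedback genes of the ERK pathway, to which Ptprr belongs by function, Dusp8 was higher (2.01-fold, lost with scaling) and Dusp2 and Dusp6 lower. Among 12 vasoactive peptides and receptors, Ramp3, a partner of the adrenomedullin receptor, was 6.34-fold higher in 76 members. Nppb gave 29 UMIs in 8 members, 75.9% of them in a single cell. Edn1, Ednrb and Npr3, the clearance receptor for natriuretic peptides, were lower, Ednrb at 28.4 against 289 CPM and Npr3 at 22.2 against 130 CPM.

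Matrix genes differed in both directions. Of 15 hyaluronan and proteoglycan genes 5 were higher and 3 lower (background 8.52% and 5.35%), 7 had a ratio above 1, and the list summed to 5688 CPM in members and 8011 CPM in set A cells. Vcan, the large proteoglycan of myxomatous matrix, was 4.31-fold higher (228 against 52.9 CPM, in 83 members), and Cd44, a hyaluronan receptor, 17.1-fold higher (236 against 13.8 CPM, in 79 members). Gpc6, Prelp and Sdc4 were higher as well, Sdc4 no longer with scaling, and Bgn, Ogn and Sdc3 lower. Fn1, which encodes fibronectin, was at 139 CPM in mgR members against 1457 CPM in set A cells and at 149 against 1381 CPM in WT. Igfbp5, in 97 members, was at 4179 against 1033 CPM in mgR and 4210 against 2957 CPM in WT, and Thbs2 and Ccn3 were higher too, while Postn, Ccn2, Ccn5 and Igfbp3 were lower, out of 14 matricellular genes. Of 34 collagen, elastic fibre and basement membrane genes, Col5a2, Col6a1, Col6a2 and Mfap5 were higher and 9 were lower, including Col3a1, Col18a1, Fbln2 and Mfap2. Adamts5, which cleaves versican, was 8.1-fold higher (258 UMIs in 73 members) and Adamts9 3.24-fold, and Timp3, Mmp3 and Adamts10 were lower, out of 13. In WT, Adamts5 did not show this difference, with 12 UMIs in members and 13 in set A cells.

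Of 27 mTORC1-responsive genes, 8 were higher and 1, Scd2, lower, against a background of 8.52% and 5.35% over all genes. Several of the 8 belong to sterol synthesis and its control, among them Fdps (10.3-fold, 152 UMIs in 55 members), Idi1 (5.76-fold), Sqle (29 against 1 UMI) and Srebf2 (2.13-fold, lost with scaling), and Vegfa (3.62-fold) and Eno1 (2.36-fold) were also higher. The median of the list was −0.06, below that of all genes. In WT, 6 genes of this list could be tested, with none higher in members and 1, Slc3a2, lower. Among 17 adhesion and chemokine genes Sele, Ackr3, Ccl2 and Ccl7 were higher and Icam1, Cxcl1 and Cxcl12 lower, but 84.9% of the Ccl2 UMIs and 68.5% of the Ccl7 UMIs of members lay in 1 cell. Of the 18 pan-endothelial genes, Esam, Cd34 and Sox17 were higher and Kdr, Eng, Cldn5 and Clec14a lower. Of 26 valve and flow-responsive genes, Adamts8 and Cdh11 were higher and 9 were lower, among them Cytl1 (782 against 1956 CPM), Foxc1, Foxc2, Smad6 and Npr3. Among 11 arterial and venous genes Sox17, Hey2 and Stmn2 (5.33-fold) were higher and Gja4, Fbln5, Nr2f2, Ephb4 and Bmx lower. Immediate early and heat shock genes, which mark the stress of digestion, had none higher and Fosb and Junb lower out of 25, with 3 more lower after scaling. In WT, Fos and Atf3 were higher and Ier3 lower out of 20. The list median was −0.29 in mgR and 0.21 in WT.

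Over all cells of the endothelial gate, the gene whose level followed the margin of set B over set A genes most closely was Prnp, outside the rule, with Pearson r 0.73 over 51 WT cells and 0.76 over 440 mgR cells. Ly6a came second in both (0.64 and 0.69). Serpinb1a (0.63 and 0.59) and Anxa1, which encodes annexin A1 (0.60 and 0.63), were also among the 10 closest genes in both libraries. Sorbs2, Fxyd5, Ltbp2, Stk38l, Crip1 and Pi16 completed the 10 in mgR. The points are cells of 1 library that differ in depth, so these are rankings and carry no test.

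The share of members was compared between genotypes next. Members made up 20 of 51 endothelial cells in WT (39.2%, Clopper-Pearson interval 25.8 to 53.9) and 152 of 440 in mgR (34.5%, 30.1 to 39.2). The difference of −4.67 percentage points had an interval from −20.0 to 9.49 and so was not detectable with this number of WT cells. Of all cells, members were 2.29% in WT (1.40 to 3.51) and 4.42% in mgR (3.76 to 5.16), a difference of 2.14 points (0.745 to 3.29). That interval reached below 0 within cells with Xist UMIs alone (2.20 points, −0.724 to 4.03), among cells that had only Y-linked UMIs (0.941, −1.60 to 3.01) and without cells holding 10 or more collagen, Dcn and Lum UMIs (0.871, −1.06 to 2.36). Shares of cells follow tissue digestion and sorting as well as the tissue, and these cannot be told apart.

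Fbn1, the targeted gene, was sparse in members, with 4 UMIs in WT (35.1 CPM) and 63 in mgR (55.9 CPM), a ratio of 1.59 (0.593 to 6.03) that does not separate the genotypes. In collagen-gated cells it stood at 181 CPM in WT and 137 CPM in mgR (ratio 0.754, 0.656 to 0.869). In set A cells Fbn1 was lower in mgR by the rule of 2-fold and interval given above. The paper describes Fbn1 mRNA as severely reduced in homozygous mgR mice. With 4 WT UMIs, Fbn1 is a weak check of the labels in members.

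Of the 8 set B genes, Inhba, Pthlh and Nts were higher in mgR members by the rule of 2-fold and interval, and none was lower. Nts was also called higher in mgR set A cells, where 1 WT and 11 mgR cells held it, so its rise was not particular to members. Inhba was 3.85-fold higher (605 against 2327 CPM, interval 3.03 to 4.96), from a median of 1.5 UMIs per WT member to 7 per mgR member. Pthlh was 2.48-fold higher (1.74 to 3.68) and Nts 2.23-fold (1.81 to 2.77). Without the 3 mgR members highest in each gene these ratios were 3.50, 2.17 and 1.83, which leaves Nts under the 2-fold limit. Over all members the remaining 5 genes lay under it: Palmd 1.66 (1.31 to 2.14), Wnt9b 1.48 (1.04 to 2.17), Dkk2 1.37 (0.951 to 2.04), Ptprr 1.14 (0.844 to 1.58) and Hapln1 0.561 (0.469 to 0.675). Because membership asks for these genes, a deeper or more strongly expressing library can admit other cells, and Wnt9b turned to a log2 ratio of −0.33 when cells were thinned before membership was set.

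Over all genes, 127 of 6901 were higher in mgR members (1.84%) and 204 were lower (2.96%). Scaling to the median gene gave 154 and 161, so the share of higher among called genes moved from 38.4% to 48.9%. The 3 set B genes thus stand among 127. Of those 127 genes, 117 could be tested in set A cells, where 12 were higher in mgR, 7 were lower, and 64 in all had the same direction. Over all 7173 genes tested in set A cells, 130 were higher in mgR, 255 were lower and 3595 had a ratio above 1.

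The higher genes farthest from a ratio of 1 included matrix and chemokine genes, and several came from a handful of cells. Ccl2, the ligand of the monocyte receptor CCR2, gave 0 UMIs in the 20 WT members and 907 in 28 mgR members, at least 30.6-fold higher with WT at a floor of 3 UMIs, but 770 of these lay in 1 cell. Without the 3 highest cells 48 UMIs remained and the bound was 1.70. Ccl7 (286 UMIs against 0), Prg4 (179 against 0) and Dpt (112 against 0) lost their bound of 2-fold in the same way, with 262, 150 and 97 UMIs in 3 cells. Mgp, the matrix Gla protein, was 4.95-fold higher (386 against 1912 CPM) and 1.99-fold without its 3 highest cells. Bgn (1 against 188 UMIs, ratio 19.0, 3.37 to 755), Postn (2 against 184 UMIs, ratio 9.31, 2.54 to 77.5) and Apoe (2.96-fold, 2.24 to 4.0) stayed above 2-fold without their 3 highest cells. In the members with fewer than 10 collagen, Dcn and Lum UMIs, however, the ratio was 1.22 for Postn (0.293 to 10.9) and 1.43 for Apoe (0.989 to 2.14), while Bgn was still 6.53-fold higher (1.12 to 263). Ptgs2, an enzyme of prostaglandin synthesis, gave 92 UMIs against 0, of which 55.4% lay in 3 cells, and its bound without these was 1.43. Ptgs2 and Ccl7 were also called higher in mgR set A cells, whereas Dpt was called lower there.

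Most of these genes were found mainly in the members that also held fibroblast transcripts. Members with 10 or more UMIs of collagen genes, Dcn and Lum were 6 of 20 in WT (30%) and 73 of 152 in mgR (48.0%). The 73 held 54.2% of all UMIs of mgR members. Of single genes they held 97.7% of the Ccl2 UMIs, 98.2% of Dpt, 97.2% of Prg4, 92.0% of Mgp and 90.2% of Postn, but 55.4% of Ptgs2, close to their share of all UMIs. They held 41.9% of the Inhba, 47.0% of the Nts and 41.8% of the Pthlh UMIs. Of the 127 higher genes, 30 (23.6%) were at least 2-fold higher in collagen-gated cells than in members, against 4.97% of all 6901 genes tested. The mgR member with 770 Ccl2 UMIs had 26037 UMIs and 4572 genes in all, 7 set B genes, 34 UMIs of the gate genes and 253 of collagens, Dcn and Lum. In the members with fewer than 10 such UMIs, 103 of the 127 genes could be tested, 101 had the same direction and 42 were called again. Since these members are part of the sums that gave the 127, the shared direction is no independent support. The part of fibroblast transcripts in the rest was not tested.

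**Figure D4:**
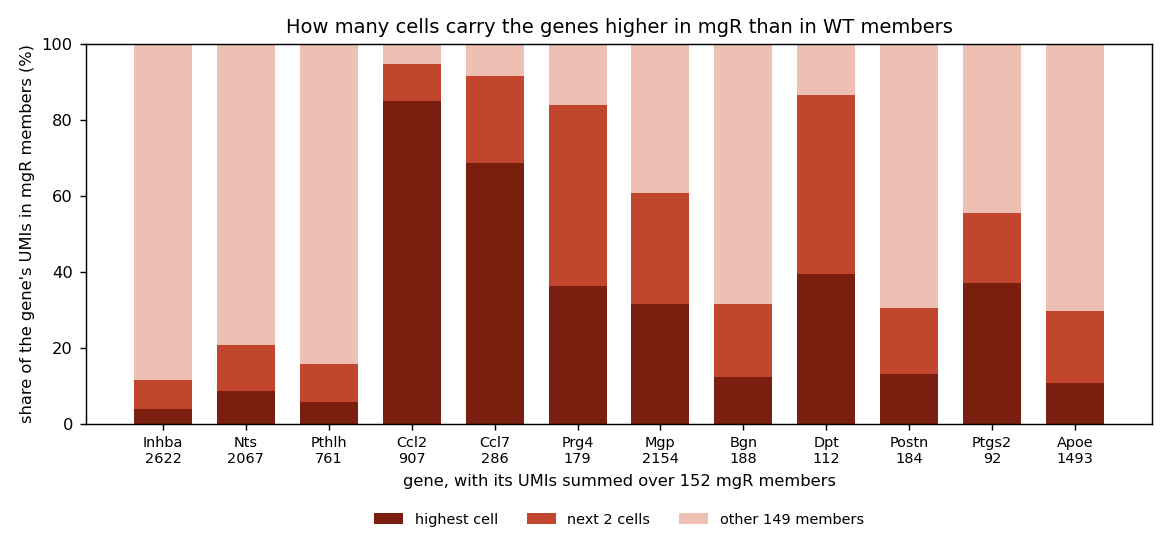
Share of each gene's UMIs in mgR members (vertical axis, percent) that lay in its highest cell (dark), the next 2 cells (middle) and the other 149 members (light), for the 3 higher set B genes and 9 of the other named higher genes, with summed UMIs under each name. The 3 highest cells held 11.6% of the Inhba UMIs and 94.7% of the Ccl2 UMIs.

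The lists gave short counts between genotypes, beside a background of 1.84% of genes higher and 2.96% lower. Among 14 adhesion and chemokine genes, Vcam1 (570 against 1314 CPM, 2.30-fold, 1.80 to 3.0) and Sele (3 against 96 UMIs) were higher beside Ccl2 and Ccl7, with a list median of 0.98 log2 against 0.01 over all genes. Of 5 Wnt antagonists Dkk3 (4 against 129 UMIs) and Wif1 (2 against 84, the latter in 6 members) were higher. Vcan was 2.60-fold higher (1.39 to 5.49) and its protease Adamts5 2.18-fold (1.22 to 4.27). Areg was 5.26-fold higher from 4 WT UMIs (2.02 to 19.5). Of 15 TGF-beta response genes Pmepa1 (2.08-fold), Col1a1 and Postn were higher. Col1a1 and Postn are also fibroblast markers. Of the 8 fibroblast markers tested, 5 were higher and none lower, with a list median of 1.33 log2. Of 17 BMP genes Bmp4 was higher (2.19-fold) and Bmp2, Acvrl1 and Smad5 lower. In set A cells Bmp4 was also called higher in mgR, whereas Adamts5 was called lower there. Of 21 mTORC1-responsive genes, Fdps (3 against 152 UMIs) and Pgk1 (3 against 102) were higher. No gene was called among 10 Wnt targets and transducers or 23 immediate early and heat shock genes.

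The lower genes were led by Tmem158, with 13 UMIs in WT members and 14 in mgR members (114 and 12.4 CPM, ratio 0.109, 0.0475 to 0.252), although 11 of the 13 lay in 3 WT cells. AY036118 (ratio 0.260, 0.228 to 0.298) and the nuclear RNA Neat1 (0.334, 0.280 to 0.399) rested on 309 and 166 WT UMIs. Both were lower in mgR in other cells as well, at ratios of 0.180 and 0.359 in set A cells and 0.218 and 0.493 in collagen-gated cells, so they were not particular to members. AY036118 lies within a ribosomal RNA repeat region and overlaps the antisense annotation Gm42418, and reads of these genes may be shared. Sox17, a transcription factor of arterial endothelium, gave 24 UMIs in 6 WT members and 58 in 31 mgR members (210 and 51.5 CPM, ratio 0.245, 0.150 to 0.412), with 21 of the 24 in 3 cells. Among cells with Xist UMIs alone the sign of Sox17 was the opposite, at a log2 ratio of 0.48 from 1 WT UMI. Gpatch1, Ttl, Usp40, Ston2, Tprn and Tmtc1 rested on 8 to 10 WT UMIs each.

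Within the 97 mgR and 6 WT members with Xist UMIs alone, 125 of the 127 higher genes could be tested, 124 had the same direction and 26 were called. Within the 24 mgR and 8 WT members with Y-linked UMIs alone, 58 could be tested, 56 had the same direction and 28 were called. Both kinds are part of the sums that gave the 127 genes, so a shared direction is no independent support. Inhba was 8.92-fold higher in the first and 3.73-fold in the second, and Nts 4.94-fold and 2.40-fold. Pthlh was 1.87-fold higher in the first (1.10 to 3.45), under the 2-fold limit, and 5.45-fold in the second. Wnt9b (2.11-fold, 1.01 to 5.30) and Dkk2 (2.05-fold, 1.03 to 4.80) met the limit in the first kind from 7 and 8 WT UMIs, and in the second had ratios of 1.5 (0.954 to 2.46) and 0.912 (0.502 to 1.75). In the members with fewer than 10 collagen, Dcn and Lum UMIs, Inhba was 3.52-fold and Pthlh 2.62-fold higher, and Nts had a ratio of 1.80 (1.44 to 2.27).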

How the data were processed

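Single cells of mitral valve leaflets were profiled with droplet 3' RNA sequencing, as 1 WT and 1 mgR library. The authors aligned the reads to mm10 with Cell Ranger (7.1.0, per the labels), and the deposited values are raw UMI counts per gene and cell barcode, with no normalization. Cells were filtered and gated as described above, and no doublets were removed. Scrublet (in scanpy 1.11.5) marked 0.8% and 1.48% of kept cells, among them 0 WT and 3 mgR members, and served only as an alternative. The members and gene lists were chosen with earlier results of these data known.

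For each gene, counts were summed over the cells of a class in a library and scaled to CPM by the class total. Intervals are exact at 95%, Poisson for sums, Clopper-Pearson for shares and conditional binomial for ratios (scipy 1.17.1), and cover counting error only. Groups differ by 1 library, so no test was run. Ratios were computed for genes with at least 20 UMIs in both sums together, and log2 ratios with 10 CPM added to each group. A group at 0 was set to a floor of 3 UMIs per summed group for bounds. Named genes were all set A and set B genes, Fbn1, and the 15 higher and 10 lower genes of the class contrast and 10 each way of the genotype contrast whose interval bound nearest to 1 lay farthest from it. They also had to keep their direction in the mean over cells and, for the class contrast, in WT, and genotype genes needed UMIs in at least 3 members. Other genes named are list members or were chosen after their values were seen. Thinning drew 2000 UMIs per cell without replacement. Scripts were tested on simulated counts. Gene positions are from GENCODE M21 (GRCm38), which matched 32158 of 32285 features. Alternatives varied the gate, the margin, set B, the mitochondrial limit, the UMI minimum, the scaling, thinning, and the cells kept. A few of the genes that these rules and lists name are not reported here.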

Additional observations from a re-analysis of the deposited data

Results flagged for a closer look

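Ccl2 was higher in members than in set A cells of the mgR library (907 against 305 UMIs, a CPM ratio of 3.64) and lower in the WT library, where members had 0 and set A cells 31 UMIs, a ratio of at most 0.0953 with members at the floor of 3 UMIs. It is listed because the direction is opposite in the 2 libraries, and the difference between them was not tested. In mgR, 770 of the 907 UMIs lay in 1 member.

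Outside the quality filter, 5 mgR barcodes met the endothelial gate and the rule, with 564 set B UMIs in all. They are among 364 mgR barcodes left out, of which 8 met the gate, while 0 of 229 barcodes left out in WT met it. These barcodes are listed because they carry the marker genes in data that no comparison used.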

How the results depend on the processing

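The 2 shares and the 4 counts of called genes gave 65 values under other settings that kept within the stated limits of the reported ones. Without members and set A cells holding 10 or more collagen, Dcn and Lum UMIs, 277 genes were lower in members than in set A cells and 112 lower in mgR than in WT members. Among cells with Xist UMIs alone 83 genes were higher in mgR members. Among cells with Y-linked UMIs alone the difference in the share of endothelial cells was −26.0 points (−53.1 to 4.58), 339 genes were higher and 224 lower in members than in set A cells, and 67 were lower in mgR members. With no UMI minimum 327 genes were lower in mgR members. With at least 50 UMIs 492 were higher and 303 lower in members than in set A cells, and 98 lower in mgR members. Keeping only members with 3 or more of the 6 markers, a setting chosen after seeing the data, gave 733 and 497 genes between classes and 125 and 181 between genotypes. These settings change the number of cells or genes compared by construction.

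Of the values for named genes, 789 stayed within their counting interval, 143 moved and 4 changed sign. The genotype log2 ratio became −0.33 for Wnt9b with thinned membership, −0.19 for Plvap among cells with Y-linked UMIs alone, and 0.48 for Sox17 and 1.05 for Ttl among cells with Xist UMIs alone, and the cause was not tested. No paired analysis was possible because each genotype has 1 library. WT depth is a further limit, since 20 members and 114017 UMIs leave wide intervals and genes with few UMIs uncalled.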
